A study of Arabidopsis thaliana with 12 samples.

Results

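LBD16, LBD29 and PUCHI are transcription factor genes of lateral root initiation. They were chosen by name: LBD16 (AT2G42430), LBD29 (AT3G58190) and PUCHI (AT5G18560) each had 1 probe set paired with exactly 1 gene, so the 3 genes were 3 of 17504 probe sets with a gene name and of 28583 in all. Wild-type Arabidopsis thaliana seedlings of the ecotype Col-0, 7 days old per the sample labels, had been shaken in liquid medium for 24 h at 10 seedlings per tube. They were then given a mock treatment of 0.1% DMSO, or the natural auxin indole-3-acetic acid (IAA) at 1 µM, dissolved in DMSO. Treatment lasted 15 min or 3 h, which gives 4 groups, called mock 15 min, IAA 15 min, mock 3 h and IAA 3 h. Whole seedlings were extracted, and every group had 3 arrays, numbered 1 to 3. The experiment was repeated on 3 different days. The labels conflict at 2 points: the treatment protocol gives 30 min, 1 h and 3 h where titles give 15 min and 3 h, and growth is put at 6 or 7 days in the series text.

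Auxin is perceived by F-box receptors of the TIR1/AFB family, which mark Aux/IAA repressors for destruction and so free auxin response factors to act on their target genes. In roots, the response factors ARF7 and ARF19 switch on LBD16 and LBD29, which encode plant-specific proteins with a LATERAL ORGAN BOUNDARIES domain, in pericycle cells that will divide to found a lateral root. PUCHI encodes an AP2/ERF factor that acts later in the same programme, where it shapes the pattern of divisions in the young primordium.

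The arrays numbered 1 stood apart. The interquartile range of the log2 levels was 3.89 to 3.92 on the 8 arrays numbered 2 and 3, but 2.88 on IAA 3 h array 1, 3.46 on IAA 15 min array 1, 3.53 on mock 15 min array 1 and 3.79 on mock 3 h array 1. Most results for the 3 factors are therefore given with and without the 4 arrays numbered 1. As a check of the treatment, GH3.1, an auxin-responsive gene whose enzyme conjugates auxin with amino acids, had a log2 level at 15 min of 4.98 ± 0.20 (mean ± SD, n = 3) under mock treatment and 6.65 ± 0.33 under IAA, and of 4.97 ± 0.17 and 8.48 ± 0.30 at 3 h. Its log2 change at 15 min was 1.67, with a limma adjusted p of 0.0841, and 0.0024 with the replicate number as a block. Whole seedlings hold roots and shoots, and both were seen: the root transcript PYK10 lay between 10.93 and 11.49 on all 12 arrays and the leaf transcript RCA, rubisco activase, between 10.41 and 10.66. In such bulk RNA, fewer cells of a type and less RNA per cell cannot be told apart.

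LBD29 had the highest log2 change of all named probe sets at 15 min, where its IAA level was 6.43 times its mock level, and 11.4 times at 3 h. For LBD16 the IAA level was 3.26 times the mock level at 15 min and 2.37 times at 3 h. For PUCHI it was 1.02 times at 15 min (95% interval 0.824 to 1.25) and 1.82 times at 3 h. By limma, which tested all 17504 named probe sets together, LBD29 and PUCHI passed at 3 h, where 0.171% of probe sets were called higher. LBD16 and LBD29 passed for the mean of both times, where 0.114% were. At 15 min none of the 3 genes passed, and 0% of probe sets were called (limma adjusted p 0.567 for LBD29). LBD16 and LBD29 each passed there in 3 of 23 alternative fits. For LBD29 these included the fit that took the replicate number out as a block, where 0.0229% were called higher. The calls at 3 h held in 17 of 23 alternative fits for LBD29 and in 10 of 22 for PUCHI. Those for the mean held in 14 of 22 for LBD16 and in 22 of 22 for LBD29.

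**Figure D1:**
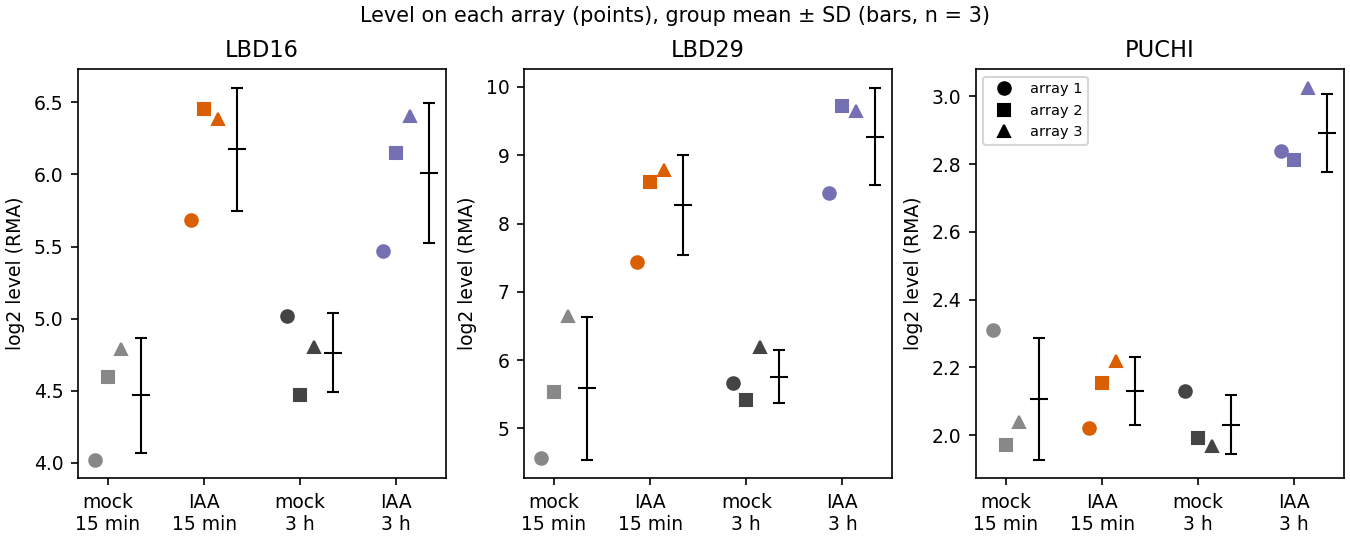
Log2 level (RMA) of LBD16, LBD29 and PUCHI on each of the 12 arrays by group. Symbols give the array number, colours the group, and bars the group mean ± SD (n = 3); each panel has its own axis. For LBD16 and LBD29 all 3 IAA arrays lie above all 3 mock arrays at both times, and for PUCHI at 3 h but not at 15 min. Such a separation was found for 0.309% of named probe sets at both times and for 6.56% at 3 h.

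For LBD29 the log2 level at 15 min was 4.57, 5.54 and 6.65 on mock arrays 1, 2 and 3, and 7.43, 8.60 and 8.78 on IAA arrays 1, 2 and 3. At 3 h it was 5.67, 5.42 and 6.19 in mock and 8.45, 9.72 and 9.65 in IAA. As deposited, array 1 was the lowest IAA array at both times, and every IAA array lay above every mock array at both times. After scaling to an equal median and interquartile range, array 1 was instead the highest IAA array at 3 h, at 9.61 against 9.51 and 9.45. Among all named probe sets, 2.11% had such a separation upwards at 15 min, 6.56% at 3 h and 0.309% at both.

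The log2 change of LBD29 at 15 min was 2.69 (SE 0.53, 95% interval 1.54 to 3.83, n = 3 against 3). Its adjusted p in limma was 0.567, and 0.0232 with the replicate block, whose SE was 0.30 (range over 23 alternatives 0.000241 to 1). In the fit without the block 0% of probe sets were called at 15 min, with 111 under an unadjusted p of 0.05. With the block 4 probe sets, or 0.0229%, were called, all of them higher. The same-numbered log2 differences were 2.87, 3.06 and 2.13 for arrays 1, 2 and 3, positive in 3 of 3 pairs. Without the arrays numbered 1 the change was 2.59 (SE 0.34, adjusted p 0.0811).

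At 3 h the log2 change of LBD29 was 3.52 (SE 0.53, 95% interval 2.37 to 4.67; limma adjusted p 0.0223, range over 23 alternatives 2.5e-06 to 0.142). At that threshold 0.171% of probe sets were called higher. The same-numbered log2 differences were 2.79, 4.30 and 3.47. The call was lost when any of 5 arrays of that time was left out, namely IAA array 2 (adjusted p 0.106), IAA array 3 (0.1), mock array 1 (0.14), mock array 2 (0.142) or mock array 3 (0.0634), with log2 changes of 3.29 to 3.73. Without all 4 arrays numbered 1 the change was 3.88 (SE 0.34, adjusted p 0.0018), and 0.503% of probe sets were called higher in that fit.

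For LBD16 the log2 level at 15 min was 4.02, 4.60 and 4.79 on mock arrays 1, 2 and 3 and 5.68, 6.45 and 6.39 on IAA arrays 1, 2 and 3. At 3 h it was 5.02, 4.47 and 4.80 in mock and 5.47, 6.15 and 6.40 in IAA. Array 1 was the lowest IAA array at each time. As for LBD29, the IAA arrays lay above the mock arrays at both times, which held for 0.309% of named probe sets. Mock 3 h array 1 was in contrast the highest mock array, which left the smallest gap between same-numbered arrays there.

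The log2 change of LBD16 was 1.70 at 15 min (SE 0.30, 95% interval 1.06 to 2.35), the third highest of all named probe sets. It did not pass in limma, with an adjusted p of 0.263 without and 0.0583 with the block. The same-numbered log2 differences were 1.66, 1.85 and 1.60. Without the arrays numbered 1 the change was 1.73 (SE 0.14) and passed, with an adjusted p of 0.00531 (range over 23 alternatives 3.15e-05 to 1), where 0.0628% of probe sets were called higher.

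At 3 h the log2 change of LBD16 was 1.24 (SE 0.30, 95% interval 0.60 to 1.89; limma adjusted p 0.202, and 0.0595 with the block). The same-numbered log2 differences were 0.45, 1.68 and 1.60, so the pair numbered 1 stood below the others. Without the arrays numbered 1 the change was 1.64 (SE 0.14, adjusted p 0.00139, range over 23 alternatives 9.68e-06 to 0.826).

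For PUCHI the log2 level at 15 min was 2.31, 1.97 and 2.04 on mock arrays 1, 2 and 3 and 2.02, 2.15 and 2.22 on IAA arrays 1, 2 and 3, and the groups overlapped. At 3 h it was 2.13, 1.99 and 1.97 in mock and 2.84, 2.81 and 3.03 in IAA, where each IAA array lay above each mock array. Such a separation upwards at 3 h was found for 6.56% of named probe sets. These are dim values: PUCHI lay at the 4.84th to 14.5th percentile of all probe sets of an array in mock and in IAA at 15 min, and at the 15.15th, 26.51st and 29.66th on IAA 3 h arrays 1, 2 and 3. RMA compresses differences at such levels.

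At 15 min the log2 change of PUCHI was 0.02 (SE 0.14, 95% interval -0.28 to 0.33, limma adjusted p 1), with same-numbered differences of -0.29, 0.18 and 0.18. At 3 h it rose by 0.86 on the log2 scale (SE 0.14, 95% interval 0.56 to 1.17; adjusted p 0.0305, and 0.0204 with the block, where 0.257% of probe sets were called higher). The same-numbered differences at 3 h were 0.71, 0.82 and 1.06. Without the arrays numbered 1 the rise at 3 h was 0.94 (SE 0.10, adjusted p 0.00373).

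The call of PUCHI at 3 h depended on how the arrays were scaled. After quantile normalization the change was 0.67 (adjusted p 0.399) and after scaling to an equal median and interquartile range 0.64 (adjusted p 0.514; range over 22 alternatives 2.32e-05 to 0.514). The level on IAA 3 h array 1 was 2.84 as deposited, 2.33 after quantile normalization and 2.33 after scaling, against 2.05 to 2.21 and 2.08 to 2.20 on the mock 3 h arrays. On IAA 3 h arrays 2 and 3 it was 2.91 and 3.12 after quantile normalization. The call was also lost when any of 9 arrays was left out (adjusted p 0.056 to 0.171), which were all 3 mock 3 h arrays, IAA 3 h arrays 2 and 3, and arrays 2 and 3 of both groups at 15 min. PUCHI fell under the level filter that dropped the dimmest probe sets and has no value there.

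**Figure D2:**
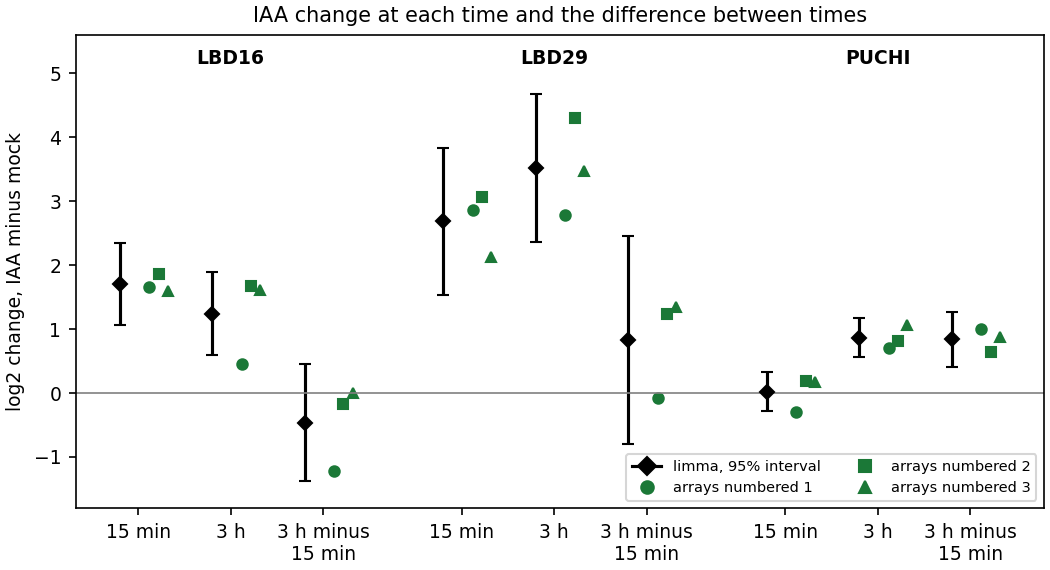
Log2 change, IAA minus mock, of each gene at 15 min, at 3 h and as the difference between these responses. Diamonds with bars are limma estimates with 95% intervals, and green symbols are the same-numbered arrays; for the pair numbered 1, LBD16 has a change of 0.45 at 3 h against 1.68 and 1.60 for the others.

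The mean of the 2 changes gives 1 value for each gene that draws on all 12 arrays. LBD29 rose by 3.1 on the log2 scale (SE 0.37, 8.58-fold, 95% interval 4.88 to 15.1-fold; limma adjusted p 0.00797), the largest mean rise of all named probe sets. LBD16 rose by 1.47 (SE 0.21, 2.78-fold, 95% interval 2.02 to 3.81-fold; adjusted p 0.0209). PUCHI had a mean change of 0.44 (SE 0.10, 1.36-fold, 95% interval 1.17 to 1.58-fold) and did not pass, with an adjusted p of 0.23. At this threshold 0.114% of probe sets were called higher, and 0.149% with the block, under which the calls of the 3 genes were the same.

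An exact permutation of the treatment labels within each time, two-sided over 400 relabelings, gave p 0.005 for LBD16, 0.005 for LBD29 and 0.045 for PUCHI. The value 0.005 is the smallest these relabelings allow. Swapping the labels only within same-numbered pairs, over 64 relabelings, gave 0.0312 for LBD16 and for LBD29, the smallest such swaps allow, and 0.125 for PUCHI. Whether the numbers pair samples is not known. At 3 h the deviations of same-numbered mock and IAA arrays correlated at 0.117 to 0.172 only. These permutation p-values are not adjusted over probe sets. The genes were chosen with earlier results of these data known, so the values are no independent support. LBD29 kept its limma call for the mean in all 22 alternatives, with adjusted p up to 0.0424. LBD16 lost it in 8 of the 12 fits that left out 1 array, with log2 changes of 1.37 to 1.54 and adjusted p of 0.06 to 0.0977. Those 8 arrays were the 3 mock 3 h arrays, IAA 3 h arrays 2 and 3, IAA 15 min arrays 2 and 3, and mock 15 min array 2. Without the arrays numbered 1 the mean changes were 1.68 for LBD16 (adjusted p 0.000402), 3.24 for LBD29 (0.000987) and 0.56 for PUCHI (0.0128), so that PUCHI then passed, in a fit that called 0.411% of probe sets higher.

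Timing was compared by the difference between the responses, the log2 change at 3 h minus that at 15 min. For PUCHI it was 0.84 (SE 0.20, 95% interval 0.41 to 1.27), positive in 3 of 3 same-numbered sets of arrays at 1.00, 0.64 and 0.88. It did not pass over all probe sets (limma adjusted p 0.832, and 0.398 with the block). There 0.0114% were called without the block, 0 of them higher, and 333 had an unadjusted p under 0.05. For LBD29 the difference was 0.83 (SE 0.74, 95% interval -0.79 to 2.46), with -0.08, 1.23 and 1.34 in the 3 sets. For LBD16 it was -0.46 (SE 0.42, 95% interval -1.38 to 0.45), with -1.21, -0.18 and 0.00. Adjusted p was 0.999 for both LBD genes, and these intervals leave room for a larger or a smaller response at 3 h. With the arrays numbered 1 left out the difference was -0.09 for LBD16 (SE 0.19, adjusted p 0.984), 1.29 for LBD29 (SE 0.49, 0.659) and 0.76 for PUCHI (SE 0.14, 0.146). Leaving out 1 array at a time gave -0.71 to -0.19 for LBD16 and 0.30 to 1.34 for LBD29.

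Within IAA seedlings, the log2 level at 3 h minus that at 15 min was 1.00 for LBD29 (SE 0.53, 95% interval -0.15 to 2.15, limma adjusted p 1, and 0.353 with the block), with same-numbered differences of 1.02, 1.12 and 0.87. As deposited, the IAA groups overlapped for LBD29, since array 1 at 3 h lay below arrays 2 and 3 at 15 min. After quantile normalization they did not, with 8.78 on array 1 at 3 h against at most 8.71 at 15 min (change 1.07, limma adjusted p 0.836). Nor did they after scaling to an equal median and interquartile range, with at least 9.45 at 3 h against at most 8.60 (change 1.30, adjusted p 0.646). The share of all probe sets so separated after these scalings was not counted. The corresponding value for LBD16 was -0.17 (SE 0.30, 95% interval -0.81 to 0.48, adjusted p 1), with overlapping groups.

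PUCHI was 0.76 higher at 3 h than at 15 min of IAA on the log2 scale (SE 0.14, 95% interval 0.46 to 1.06; adjusted p 0.104, and 0.0519 with the block). Its groups did not overlap there, as for 3.31% of named probe sets in this direction. Without the arrays numbered 1 the value was 0.73 and passed (adjusted p 0.00954, range over 22 alternatives 0.000227 to 0.696), in a fit that called 0.886% of probe sets higher.

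The 3 genes had no called change with time in mock seedlings, which is the background of time in the tube. The log2 difference, mock 3 h minus mock 15 min, was 0.30 for LBD16 (95% interval -0.35 to 0.94), 0.17 for LBD29 (-0.98 to 1.32) and -0.08 for PUCHI (-0.38 to 0.23), each with an adjusted p of 0.999. For all 3 genes the mock groups overlapped, and 11.1% of named probe sets had mock groups that did not. By limma 0% of probe sets were called in this comparison, with or without the block, with 499 under an unadjusted p of 0.05 without it. Without the arrays numbered 1, however, 118 probe sets were called, and with array weights 458. The LBD16 difference changed sign without the arrays numbered 1, to -0.06, and that of LBD29 to -0.29.

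The spread between arrays of a group differed among the 3 genes. The SD within groups, pooled over the 4 groups, was 0.75 for LBD29, above that of 98.2% of named probe sets, 0.40 for LBD16, above 79.4%, and 0.13 for PUCHI, above 7.15%, where the median over all was 0.26. In 10 of 12 arrays LBD16 and LBD29 deviated the same way from their group means. How often other pairs of probe sets did so was not counted. In the values as deposited, LBD29 lay 0.84, 1.02 and 0.82 below its group mean on array 1 of the groups IAA 15 min, mock 15 min and IAA 3 h respectively. LBD16 lay 0.49, 0.45 and 0.54 below there. PUCHI deviated the same way as LBD29 in 7 of 12 arrays. These arrays share their RNA and scaling between genes, and the part of array 1's narrower distribution in the shared deviations was not tested.

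**Figure D3:**
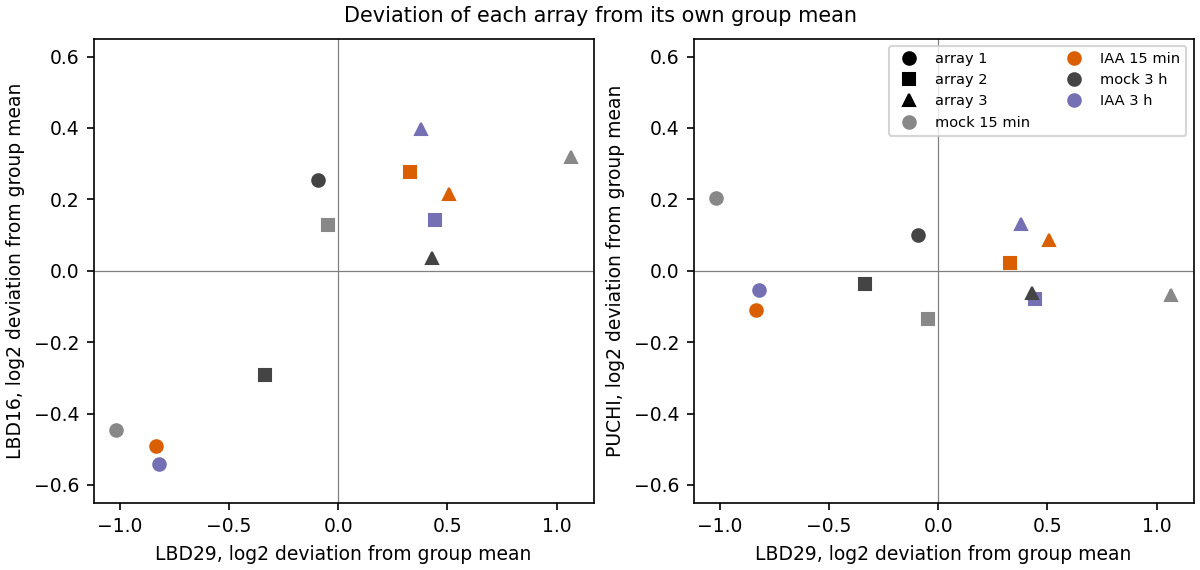
Deviation of each array from its group mean on the log2 scale, LBD29 on the horizontal axis against LBD16 (left) and PUCHI (right). Symbols give the array number and colours the group; array 1 of IAA 15 min, of mock 15 min and of IAA 3 h lie lowest for both LBD genes.

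The probe sets closest to each factor were found by Pearson correlation over the 12 arrays among single-gene probe sets with an SD of at least 0.5, of which there were 1528. PUCHI itself lay under that SD. All 12 arrays and their groups are shared by the genes compared, so a correlation here is a description of likeness. The 5 closest to LBD16 were HAT2, which encodes a homeodomain-leucine zipper factor of class II (r = 0.963), AT3G50340 (0.939), LBD29 (0.938), AT5G41400 (0.897) and RTFL13, a gene of the small ROTUNDIFOLIA-like peptides (0.894). Over the 8 arrays numbered 2 and 3 these same genes held ranks 1 to 5, with r from 0.95 to 0.983.

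HAT2 had log2 changes of 1.99 (SE 0.31) at 15 min and 1.5 at 3 h, AT3G50340 of 1.07 (SE 0.15) and 1.00, AT5G41400 of 1.17 (SE 0.16) and 0.88, and RTFL13 of 1.45 (SE 0.41) and 1.03. Over the arrays numbered 2 and 3 the order of the 2 times turned for HAT2, at 1.85 and 1.89, and for AT3G50340, at 1.10 and 1.24. It was 1.08 and 1.07 for AT5G41400 and 2.09 and 1.39 for RTFL13, beside 1.73 and 1.64 for LBD16.

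The 5 closest to LBD29 were GH3.3 (r = 0.966), GH3.1 (0.943), LBD16 (0.938), WES1, which is also known as GH3.5 (0.924), and AT3G50340 (0.917). The 3 GH3 genes encode enzymes that join auxin to amino acids. Their log2 changes at 15 min and 3 h were 1.63 and 3.64 for GH3.3 (SE 0.38), 1.67 and 3.51 for GH3.1 (SE 0.21) and 0.70 and 2.04 for WES1 (SE 0.27), beside 2.69 and 3.52 for LBD29. Over the arrays numbered 2 and 3, WES1 was in rank 10 and the other 4 stayed within the first 5.

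The 5 closest to PUCHI were AT2G23060 (r = 0.934), AT1G30760 (0.933), AT4G17350 (0.924), AT3G25290 (0.923) and AT1G62770 (0.921). All 5 had log2 changes between -0.11 and 0.09 at 15 min. At 3 h they changed by 1.65 (SE 0.25), 1.98 (SE 0.26), 1.27 (SE 0.16), 0.99 (SE 0.18) and 1.63 (SE 0.20) in that order. This describes genes picked for a pattern like that of PUCHI. Over the arrays numbered 2 and 3 they held ranks 12 to 18, with r from 0.935 to 0.946. Which genes are closest to PUCHI thus depended on the arrays used.

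**Figure D4:**
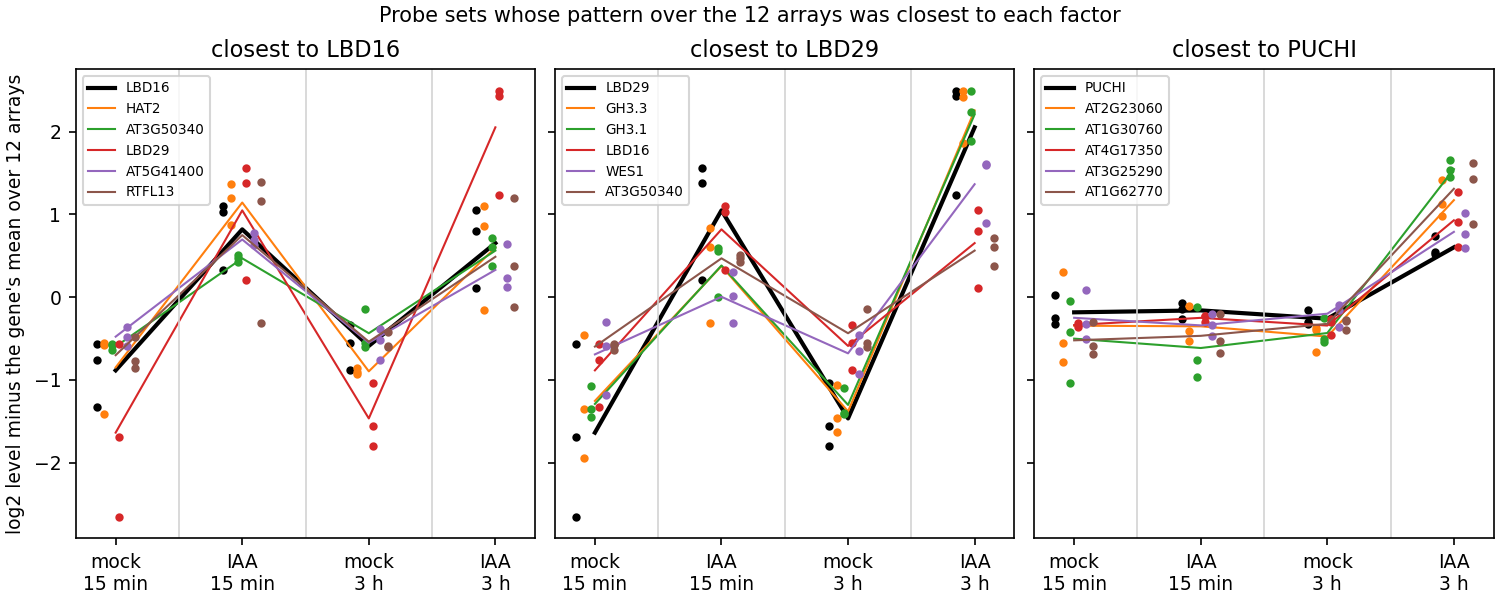
Log2 level minus the gene's own mean over the 12 arrays, by group, for each factor (black) and the 5 probe sets closest to it. Points are arrays and lines join group means; for LBD16, LBD29 and each gene near them the IAA mean lies above the mock mean at both times, and the genes near PUCHI are highest in the IAA 3 h group.

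**Figure D5:**
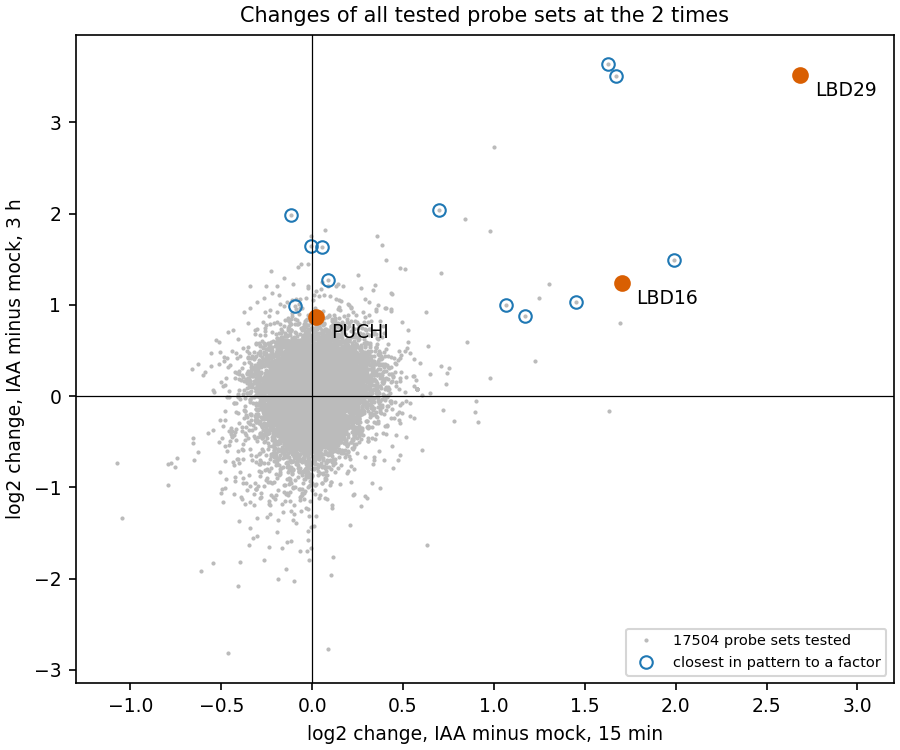
Log2 change, IAA minus mock, at 15 min (horizontal) and 3 h (vertical) for the 17504 named probe sets (grey), with LBD16, LBD29 and PUCHI in orange and their closest probe sets circled. LBD29 lies farthest to the right at 2.69, LBD16 at 1.70, and PUCHI at 0.02.

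Other genes of the lateral root pathway were taken from lists of 87 loci, of which 7 were measured by a named single-gene probe set, and the remaining loci are not analysed here. In limma 0 of the 7 were called at 15 min, where 0% of all probe sets were, and 1 was called higher and 0 lower at 3 h, where 0.171% were called higher. Their median log2 change was -0.05 at 15 min and 0.15 at 3 h, beside 0.00 and 0.06 over all named probe sets. Upstream of the factors, the Aux/IAA repressor gene IAA18, the 1 measured of 23 loci for auxin receptors, repressors, response factors and transport, changed by -0.15 at 15 min (SE 0.51) and -0.13 at 3 h. Of 24 other LBD family loci, LOB, the family's founding member, was measured, and it changed by -0.05 (SE 0.17) and 0.07. Over the arrays numbered 2 and 3 the mean log2 level of IAA18 at 3 h was 5.96 in mock and 6.38 in IAA. For LOB it was 2.65 and 2.54, so both signs at 3 h turned. At 15 min these means were 5.96 and 5.95 for IAA18 and 2.52 and 2.53 for LOB.

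Of 19 other founder cell and primordium loci, 3 were measured. BBM, an AP2 factor gene of the PLETHORA group, changed by 0.28 at 15 min (SE 0.33) and 0.35 at 3 h. CR4, the receptor kinase gene also called ACR4, changed by -0.08 (SE 0.15) and 0.15. AT5G66815, which the gene table leaves unnamed, changed by 0.01 (SE 0.21) and 0.06. None of these passed in limma. Over the arrays numbered 2 and 3 the mean log2 levels of BBM in mock and IAA were 3.88 and 3.89 at 15 min. At 3 h they were 3.96 and 4.055. For CR4 at 3 h they were 3.3554 and 3.3549. For AT5G66815 they were 1.73 and 1.65 at 15 min and 1.63 and 1.60 at 3 h, so its signs turned.

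Of 21 downstream loci, 2 were measured, and the gene table names neither, so no role is given. AT1G67750 had log2 levels of 5.65, 6.08 and 6.04 on mock 3 h arrays 1, 2 and 3 and 7.34, 7.08 and 7.24 on the IAA 3 h arrays. It rose by 1.30 at 3 h (SE 0.19, limma adjusted p 0.0186) after a change of -0.15 at 15 min (SE 0.19), and it also rose from 15 min to 3 h of IAA, by 1.74 (adjusted p 0.00633), where 0.0457% of probe sets were called higher. AT5G14650 changed by -0.03 at 15 min (SE 0.54) and 1.07 at 3 h (adjusted p 0.78). Its IAA 3 h level was 5.58 on array 1 and 7.39 and 8.06 on arrays 2 and 3. From 15 min to 3 h of IAA it changed by 1.92 (SE 0.54), with an adjusted p of 0.452 in limma and 0.0331 with the block.

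Markers of root and shoot were read beside these results, 2 of 12 root loci and 2 of 8 leaf loci being measured. The log2 of the summed root markers, PYK10 and EXPA7, lay between 11.07 and 11.34 in mock and 11.22 and 11.39 in IAA at 15 min, and between 11.38 and 11.50 in mock and 10.95 and 11.40 in IAA at 3 h. That of the leaf markers, RCA and PSAN, lay between 10.70 and 10.91 and between 10.85 and 10.88 at 15 min, and between 10.86 and 10.99 and between 10.82 and 10.93 at 3 h. The sums were taken on the linear scale, so the root sum follows PYK10 almost alone. In mock at 15 min the mean log2 level was 11.23 for PYK10 and 4.28 for EXPA7. EXPA7 itself changed by -0.24 at 15 min (SE 0.24) and -0.06 at 3 h. No marker was called in any of the 6 comparisons, and the summed root markers of mock and IAA overlapped at both times.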

How the data were processed

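Biotin-labelled total RNA (100 ng) was hybridised to Affymetrix Gene 1.1 ST arrays, 1 for each of 12 samples. The log2 levels deposited by the authors came from RMA in oligo, per the submitters' processing notes, which name no version. Coordinates are left out, since the build is not given in the sources used here. The values were used as deposited, and signal over background is unknown. Groups and array numbers came from the titles.

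Of 28583 probe sets, 16746 were paired with 1 gene, 758 with several and 11079 with none by the platform annotation. A RefSeq gene table of TAIR10.1 updated the names (16601 through the gene number, 96 through the locus tag). The 17504 with a name were tested in limma 3.58.1 (R 4.3.3; lmFit, contrasts.fit, eBayes), 4 groups in 1 fit, no block, with p-values adjusted by Benjamini-Hochberg over all of them and a threshold of 0.05. Residual degrees of freedom were 8 and prior ones 3.52. There were 6 contrasts. Exact permutations and tables used Python 3.11.15 (pandas 2.3.3) and figures matplotlib 3.10.9. The fit was also run on simulated data with independent arrays and 1 spread per probe set. Those data lack the likeness of same-numbered arrays and the narrower arrays numbered 1, so that run cannot tell how these affect the calls.

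Deviations of same-numbered arrays from their group means correlated at 0.781, 0.65 and 0.639 between mock and IAA at 15 min, at 0.127, 0.117 and 0.172 at 3 h, at 0.705, 0.579 and 0.611 between the IAA groups and at 0.0628, 0.0815 and 0.206 between the mock groups. The numbers were thus taken to pair samples between mock and IAA at 15 min and between the IAA groups. Between mock and IAA at 3 h the correlations were about as low as between the mock groups. Same-numbered differences at both times are therefore a description only. Values from a fit blocked on the array number (6 residual degrees of freedom) are printed beside some results, whether or not the call changed. It pools its spread over all 4 groups. Nothing in the labels says which number stands for which day, and p-values measure the spread between these arrays.

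Genes named besides the 3 factors are all measured members of the pathway lists, the 5 closest in pattern to each factor, and GH3.1 and GH3.3. Members and lists were chosen with earlier results of these data known. The alternatives were other scalings, row sets, variance models, array weights, and arrays left out.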

Additional observations from a re-analysis of the deposited data

How the results depend on the processing

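Counts of called probe sets are given in the order 15 min, 3 h, mean of both times, difference between the responses, IAA 3 h against IAA 15 min, and mock 3 h against mock 15 min, and were 0, 42, 25, 2, 13 and 0 in the fit as reported. They moved to 42, 546, 395, 127, 673 and 458 with array weights, to 11, 163, 110, 21, 352 and 118 with the arrays numbered 1 left out, and to 15, 298, 189, 62, 577 and 158 with the replicate block on those 8 arrays, an alternative chosen after seeing the data. With all rows of the value table, which tests more of them, the first 5 were 12, 93, 62, 5 and 46. With the replicate block they were 4, 90, 43, 3 and 48, and it changed no other call of the 3 genes than that of LBD29 at 15 min. Quantile normalization gave 4 at 15 min, 5 for the difference and 22 between the IAA groups. An equal median and interquartile range gave 1 and 20 for the first and last of these. The fit of only the 2 groups compared gave 6 at 3 h and 0 between the IAA groups. Leaving out 1 array at a time gave 0 to 5, 8 to 61, 8 to 39, 1 to 8, 2 to 51 and 0 to 0.

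At 15 min LBD16 and LBD29 passed with array weights (1.76 and 2.85), LBD16 without the arrays numbered 1 (1.73), both with the block on the arrays numbered 2 and 3 (1.73 and 2.59), and LBD29 with the block (2.69). At 3 h LBD16 passed with array weights (1.69) and without the arrays numbered 1, with or without the block (1.64). At 3 h the calls of LBD29 (3.52) and PUCHI (0.86) were lost with only the 2 groups compared, which has fewer residual degrees of freedom, and that of PUCHI with quantile normalization (0.67) and equal interquartile range (0.64). The cause of the latter 2 was not tested. PUCHI passed for the mean of both times with array weights (0.56) and without the arrays numbered 1, with or without the block (0.56). It passed for the difference between the responses with array weights (0.76), and between the IAA groups with array weights (0.75) and without the arrays numbered 1, with or without the block (0.73). Signs turned for uncalled values only: PUCHI at 15 min (-0.0096, equal interquartile range), and mock 3 h against 15 min for LBD16 (-0.0274 with array weights, -0.0559 without arrays numbered 1, with or without the block) and LBD29 (-0.17 and -0.29). Leaving out 1 array gave 3.29 to 3.93 for LBD29 and 0.80 to 0.91 for PUCHI at 3 h, and 1.36 to 1.61 for the mean of LBD16. It gave -0.0443 to 0.126 for PUCHI at 15 min, -0.41 to 0.10 for LBD16 between the IAA groups, and -0.34 to 0.70 for LBD29 and -0.145 to 0.0251 for PUCHI between the mock groups. The log2 changes of LBD16 and LBD29, IAA minus mock, were positive at both times in every alternative run. With labels swapped within same-numbered pairs, also chosen after seeing the data, the exact permutation p of PUCHI for the mean change (0.44) no longer passed, at 0.125. PUCHI is dim and 3 arrays per group limit the precision of all values.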
